A study of Mus musculus with 6 samples.

Results

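Sense-overlapping lncRNA transcripts are listed as long noncoding RNAs and lie on the same strand as a protein-coding transcript. They share its exons or overlap it through an intron. Every transcript of the deposited lncRNA table that carried a relationship containing the words sense-overlapping was taken, which gave 14806 of 23098 transcripts. Of these, 14082 were described as overlapping an exon of the associated gene, 723 as overlapping an intron, and 1 carried both descriptions. Whether each of the 723 lies inside an intron of that gene was not checked. The associated gene is called the host below. The cells were the wild-type mouse neural stem cell line C17.2, an immortalised line derived from neonatal cerebellum, grown in medium with serum. The H/R group was kept at 5% oxygen for 12 h and then at standard oxygen for 48 h, and the control group is labelled only as control. Each group had 3 libraries of ribosomal RNA-depleted total RNA. Whether each library had its own culture is not stated in the labels. The spread behind every p-value is therefore that of the libraries, and it may be technical.

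A gene gives rise to more than its protein-coding messenger RNA. Transcripts that keep an intron, that end early or that carry no open reading frame long enough to be translated are annotated beside it, and many retained-intron RNAs stay in the nucleus or are degraded. Transcripts with a premature stop codon can be removed by nonsense-mediated decay. Introns also hold processed pseudogenes, which are copies of messenger RNAs pasted back into the genome, and small nucleolar RNAs, which are trimmed out of the introns of their hosts. Because the transcript and its host run on the same strand and often share exons, a short read from a shared exon can belong to either.

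The transcripts were mostly alternative forms of known coding genes. GENCODE M21, an annotation of the mm10 genome build, held 13305 of them, and 12716 belonged to a gene that it types as protein-coding. Its transcript types were retained_intron for 7297 (49.3% of the 14806), processed_transcript for 4247, nonsense_mediated_decay for 980 and processed_pseudogene for 289. A further 244 were typed protein_coding, which goes against the lncRNA label, and 134 transcripts were shorter than the usual lncRNA limit of 200 bases. The median length was 776 bases, 786 for exon overlap and 519 for intron overlap. Exon-overlapping transcripts carried the gene of the host itself in 13653 of 14082 cases. Intron-overlapping transcripts belonged to another gene than the host in 683 of 723 cases, and 313 of the 723 were of a pseudogene type. Of all transcripts, 14070 had a single host with a line in the gene table, and these fell on 6280 hosts with a median of 2 transcripts each. Ank3, which encodes the scaffold protein ankyrin-G, carried 15.

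What marks most of the transcripts held by GENCODE in sequence is a splice site of the host that lies inside an exon. Splice sites of the host's coding transcripts lay inside an exon of the transcript, with at least 20 bases on each side, in 9086 of the 13305 transcripts of the annotation, and in 6904 of the 7297 retained_intron transcripts. Such unspliced donor sites numbered 8645, of which 98% began with GT, and unspliced acceptor sites numbered 7244, of which 99.1% ended with AG. A site read across by several transcripts was counted once for each of them. Splicing in any protein_coding transcript of the host was enough, so sites used in only some coding forms are included. Whole introns of the host were held by 2024 transcripts, with a median intron length of 354 bases. The sequences below show the donor sites read through by retained_intron transcripts on which the results turn. Each gives 25 exon bases and 35 intron bases of the transcript, 5′ to 3′, from the GENCODE M21 transcripts of mm10. The capitals mark the GT at which at least 1 annotated protein_coding transcript of the host is spliced.
Arrdc3 (ENSMUST00000159090, chr13:80887463-80887522, plus strand): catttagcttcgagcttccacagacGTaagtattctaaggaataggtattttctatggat
Prim1 (ENSMUST00000133285, chr10:128021707-128021766, plus strand): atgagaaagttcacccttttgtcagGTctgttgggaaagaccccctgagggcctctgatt
Lss (ENSMUST00000162475, chr10:76544512-76544571, plus strand): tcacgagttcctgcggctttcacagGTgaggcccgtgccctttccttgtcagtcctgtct
Pdia6 (ENSMUST00000162936, chr12:17281045-17281104, plus strand): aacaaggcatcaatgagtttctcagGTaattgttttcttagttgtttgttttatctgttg
Calr (ENSMUST00000128028, chr8:84845827-84845886, minus strand): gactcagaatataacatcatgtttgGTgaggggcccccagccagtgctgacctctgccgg
Hsp90b1 (ENSMUST00000129178, chr10:86692105-86692164, minus strand): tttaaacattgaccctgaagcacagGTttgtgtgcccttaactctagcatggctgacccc
Mroh1 (ENSMUST00000160986, chr15:76408019-76408078, plus strand): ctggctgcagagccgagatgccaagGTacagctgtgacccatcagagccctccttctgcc
Rpl10a (ENSMUST00000141049, chr17:28329498-28329557, plus strand): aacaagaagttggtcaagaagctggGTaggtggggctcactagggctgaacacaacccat
Rps3 (ENSMUST00000128725, chr7:99481662-99481721, minus strand): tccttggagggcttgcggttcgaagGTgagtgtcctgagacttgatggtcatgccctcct
These letters describe the annotated transcripts and not the reads.

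The share of a transcript that its host's coding messenger RNA also holds differed by type. Over the 12714 transcripts whose host has a coding transcript in the annotation, exon-overlapping transcripts had a median of 58.6% of their bases inside exons of the host's protein_coding transcripts, and intron-overlapping transcripts had a median of 0%. The median was 52.6% for retained_intron, 63.7% for processed_transcript and 84.3% for nonsense_mediated_decay. Among exon-overlapping transcripts, counts went with this share. Exon-overlapping transcripts with under 25% of shared bases passed the filter on low counts in 992 of 1569 cases, and those with 75% or more in 381 of 3465. Among the pairs tested, the first had a median of 4.58 counts per 100 counts of the host and the second had 1.11. Intron-overlapping transcripts did not follow this order. They passed the filter in 209 of 474 cases and had a median of 2.46 counts per 100 counts of the host. How the deposited counts divided reads of shared exons between a transcript and its host is not given in the sources used here, so the level of an exon-overlapping transcript is uncertain to that extent.

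**Figure D1:**
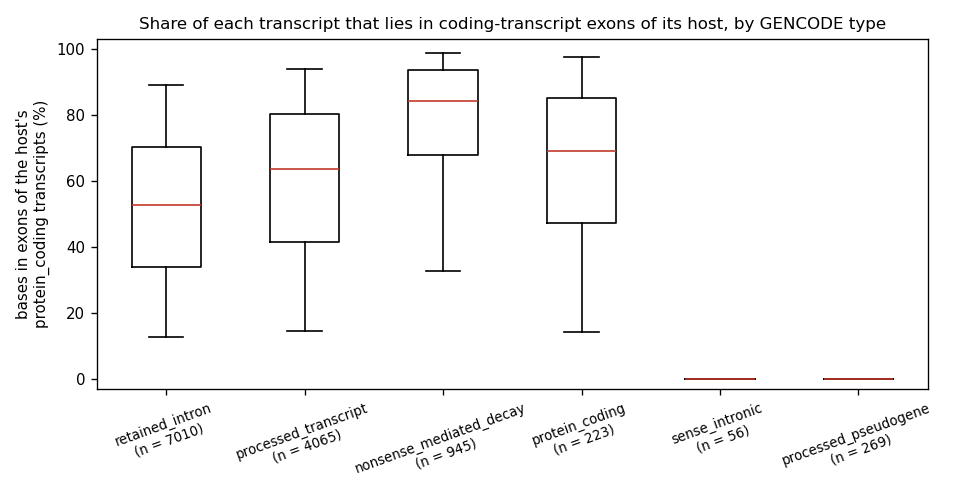
Share of each sense-overlapping transcript that lies in exons of protein_coding transcripts of its host, in percent of its bases, by GENCODE transcript type. Boxes give the median and quartiles and whiskers the 5th and 95th percentiles of the transcripts of each type. The medians are 52.6% for retained_intron and 84.3% for nonsense_mediated_decay, and 0% for sense_intronic and processed_pseudogene transcripts.

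The lncRNA table held 1145192 to 1239163 counts per library in the H/R group and 601626 to 652393 in the control group, and the gene table held 15639751 to 16830389 in H/R and 7267809 to 8371882 in control. The H/R libraries were thus the deeper ones in both tables. Sense-overlapping transcripts took 28.9, 29.1 and 30.6% of the lncRNA counts in the H/R libraries, against 31.4, 30.7 and 25.9% in the control libraries, so the groups overlapped. Control library 3 stood apart, with the lowest share and a scaling factor of 0.869 against 1.01 to 1.07 in the other 5 libraries. The 2 most abundant transcripts of the table, Rn7sk and Rn45s, are not sense-overlapping, and without them the shares were 53.1, 52.9 and 55.0% in H/R and 56.8, 57.0 and 53.6% in control. Of the neural stem cell markers, Nes averaged 331 CPM in H/R and 196 CPM in control, and Vim and Sox2 were measured. Msi1 averaged 6.77 CPM in H/R and 9.65 CPM in control, and Hes1 3.18 and 1.54 CPM. The other 5 of the 11 markers without a value, Pax6 among them, had no line in the gene table used here. Collagen genes of the mesenchymal list were high, with Col1a1 at 4135 CPM in H/R and 4319 CPM in control. Of that list 8 of 9 genes had a line and 6 had at least 1 CPM in control. Dcn averaged only 2.28 CPM in H/R and 1.83 CPM in control, Tagln 0.197 and 0.475 CPM, and Lum had no line. Levels are shares of the RNA in a library, so fewer cells that make a transcript and less of it per cell cannot be told apart. In the H/R libraries 73.9 to 79.0% of the sense-overlapping transcripts had at least 1 count, against 60.3 to 67.5% in the control libraries. Many were near the detection limit: 2849 averaged under 1 count and 4500 averaged 10 or more.

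The 6 most abundant sense-overlapping transcripts included 2 mitochondrial models and 2 pseudogenes. BC071253 (chrM:11720-14070, minus strand), assigned to mt-Nd6, which encodes a subunit of respiratory complex I, had 6388, 5991 and 6893 CPM (the count scaled to a common library size of 1e+06) in the H/R libraries, against 8494, 8528 and 9181 CPM in the control libraries. It was lower in every H/R library, with a log2 difference of -0.44 ± 0.12 (SE, adjusted p = 0.0429). That call was lost without any one H/R library or without control library 2, with an adjusted p of up to 0.241. The Cytb model, assigned to mt-Cytb and mt-Nd5 on the other mitochondrial strand, had 5259, 4034 and 5922 CPM in H/R and 6268, 4180.4 and 4983 CPM in control, and these ranges overlapped. Both models also carry an antisense relationship, and whether the counts used strand is not given in the sources used here, so reads of the 2 strands cannot be told apart. Next came 2900097C17Rik with 4355, 4406 and 4585 CPM in H/R and 3375, 3981 and 4461 CPM in control, also overlapping. The retained_intron transcript of Tmed7, a cargo receptor of the early secretory pathway, had 2389, 2429 and 2311 CPM in H/R and 2619, 2637 and 2609.9 CPM in control, and its log2 difference of -0.14 ± 0.14 (SE, adjusted p = 0.694) did not pass. The pseudogenes followed, of which Gm12191 is described with its host. Per kilobase of transcript, Gm12191 had the highest level of the 6, with 6449 in H/R and 7823 in control CPM per kb, against 2733 in H/R and 3715 in control for BC071253.

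The H/R group was compared with the control group on raw counts with edgeR's quasi-likelihood test, fitted on the whole lncRNA table, with Benjamini-Hochberg adjustment over all 6779 transcripts that passed the filter on low counts. That filter kept 4619 of the 14806 sense-overlapping transcripts. At an adjusted p under 0.05, 66 of them were higher and 100 were lower in H/R, and 4453 did not pass. Over all transcripts tested, 4.93% were called, 2.67% as higher and 2.26% as lower, and the sense-overlapping transcripts had 3.59% called. The 2160 tested transcripts without sense overlap had 7.78% called, with 115 higher and 53 lower. The median log2 difference was -0.03 for the sense-overlapping transcripts, 0.14 for the others and 0.02 over all. Whether the shares differ between these classes was not tested. At an unadjusted p under 0.05 with a fold of at least 2, 231 were higher and 223 lower, or 5.0 and 4.83%, against 6.92 and 4.97% of all transcripts tested. Every H/R library lay above every control library in 491 (10.6%, against 13.2% of all) and below in 508 (11%, against 10.8% of all). The balance of the directions rests on the scaling. With library totals alone 85 were higher and 75 lower, and with the library sizes and factors taken from the genes 43 were higher and 206 lower, where the median over all transcripts moved by -0.24. Leaving out H/R library 1, 2 or 3 left 76, 88 and 73 calls, and leaving out control library 3, which stood apart, left 64 higher and 99 lower.

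**Figure D2:**
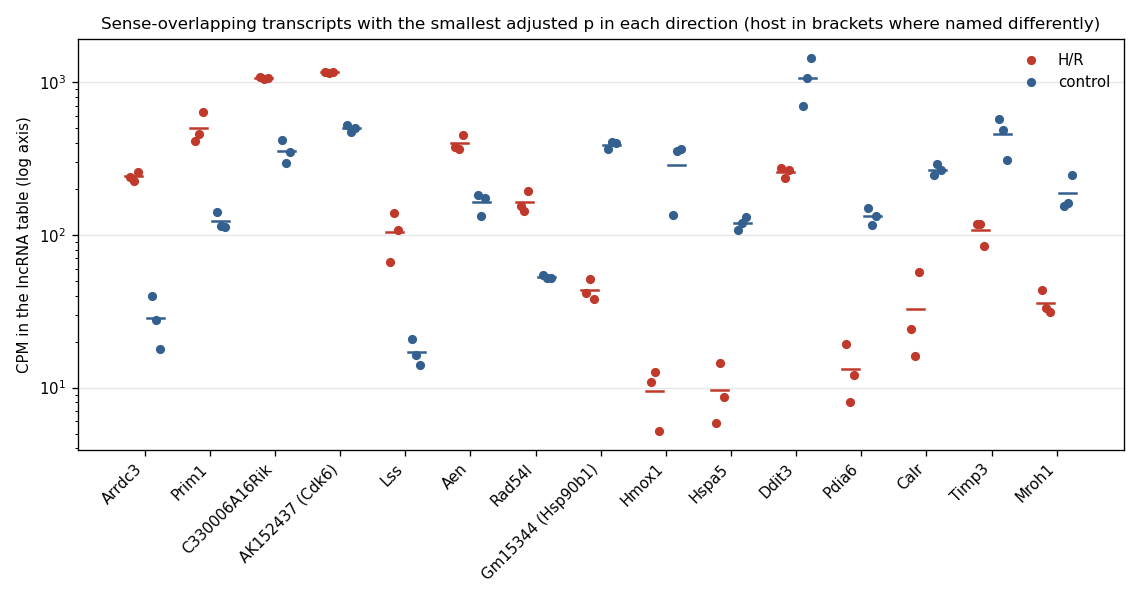
Level of the sense-overlapping transcripts whose adjusted p was smallest, higher ones left and lower ones right, in CPM of the lncRNA table on a log axis. Points are the 3 H/R and 3 control libraries and bars their means. In the 7 transcripts on the left every H/R library is above every control library, and in the 8 on the right every one is below. The transcripts were picked by a test of these same libraries, so the separation is not separate support.

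Among the transcripts that rose, the smallest adjusted p belonged to a retained_intron transcript of Arrdc3, an arrestin-domain adaptor that steers membrane receptors (chr13:80883384-80889643, plus strand). It had 240.0, 225 and 259 CPM in H/R, against 39.8, 27.6 and 17.9 CPM in control, with a log2 difference of 3.06 ± 0.30 (SE, adjusted p = 7.3e-06). The gap between the groups was far wider than the spread within either. A retained_intron transcript of Prim1, the catalytic subunit of DNA primase, had 409, 459 and 639 CPM in H/R and 142, 114 and 112 CPM in control, with a log2 difference of 2.03 ± 0.23 (SE, adjusted p = 3.13e-05). AK152437 is a model on Cdk6, a G1-phase kinase, and had 1166, 1139 and 1165 CPM in H/R, against 522, 472 and 496 CPM in control, with a log2 difference of 1.22 ± 0.17 (SE, adjusted p = 0.000255). The spread within each group was small beside the gap. C330006A16Rik, which GENCODE types as a lincRNA and which is listed under itself as host, had 1082, 1052 and 1058 CPM in H/R and 417, 297 and 347 CPM in control, with a log2 difference of 1.59 ± 0.18 (SE, adjusted p = 3.69e-05).

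A retained_intron transcript of Lss, the cyclase that makes lanosterol, had 65.8, 139.5 and 108 CPM in H/R, against 20.7, 16.2 and 13.9 CPM in control, with a log2 difference of 2.60 ± 0.41 (SE, adjusted p = 0.000838). The groups did not overlap. A processed_transcript of Aen, a nuclease induced by p53, had 377, 362 and 451 CPM in H/R and 181, 133 and 173 CPM in control, with a log2 difference of 1.29 ± 0.21 (SE, adjusted p = 0.00125), and 98.4% of its bases were shared with coding exons. The processed_transcript of Rad54l, a DNA repair gene, had 153, 142 and 194 CPM in H/R, against 54.1, 52.0 and 51.8 CPM in control, with a log2 difference of 1.63 ± 0.27 (SE, adjusted p = 0.00131).

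Of the 8 lower transcripts with the smallest adjusted p, 1 per host, 4 lay on genes of protein folding in the endoplasmic reticulum. Gm15344 (chr10:86692119-86693095, minus strand) lies on Hsp90b1, which encodes the chaperone GRP94, and had 41.7, 51.3 and 38.0 CPM in H/R, against 365, 404 and 400.5 CPM in control, with a log2 difference of -3.15 ± 0.23 (SE, adjusted p = 2.3e-07). A transcript of Hspa5, the chaperone BiP, had 5.83, 14.4 and 8.64 CPM in H/R and 107, 120.1 and 131 CPM in control, with a log2 difference of -3.62 ± 0.40 (SE, adjusted p = 3.13e-05). A retained_intron transcript of Pdia6, a disulfide isomerase, had 19.2, 8.10 and 12.1 CPM in H/R, against 149.7, 115 and 133 CPM in control, with a log2 difference of -3.32 ± 0.38 (SE, adjusted p = 3.26e-05). In Calr, the lectin chaperone calreticulin, the values were 24.2, 16.2 and 57.1 CPM in H/R and 245, 289 and 267 CPM in control, with a log2 difference of -3.03 ± 0.35 (SE, adjusted p = 3.69e-05). Every H/R library was below every control library in these 4, which were picked by their adjusted p in the same libraries. The retained_intron transcript of Hsp90b1 itself had 15.8, 12.6 and 25.1 CPM in H/R and 126, 242 and 141 CPM in control, with a log2 difference of -3.24 ± 0.36 (SE, adjusted p = 3.13e-05).

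The other 4 lay on Hmox1, Ddit3, Timp3 and Mroh1. A transcript of Hmox1, the haem-degrading oxygenase, had 10.8, 12.6 and 5.19 CPM in H/R, against 134, 354 and 365 CPM in control, with a log2 difference of -4.87 ± 0.41 (SE, adjusted p = 1.02e-06). Control library 1 had less than the other controls and still far more than any H/R library. The retained_intron transcript of Ddit3, the stress transcription factor CHOP, had 272, 234 and 266 CPM in H/R and 694, 1058 and 1434 CPM in control, with a log2 difference of -2.04 ± 0.23 (SE, adjusted p = 3.13e-05). A processed_transcript of Timp3, an inhibitor of matrix metalloproteinases, had 118, 117 and 84.7 CPM in H/R, against 573, 485 and 309 CPM in control, with a log2 difference of -2.10 ± 0.25 (SE, adjusted p = 5.06e-05). A retained_intron transcript of Mroh1 had 43.3, 33.3 and 31.1 CPM in H/R and 154, 162 and 247 CPM in control, with a log2 difference of -2.38 ± 0.29 (SE, adjusted p = 8.12e-05).

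The called transcripts with a single host fell on 137 hosts, of which 14 carried 2 or more. In 11 of these hosts all the called transcripts were lower and in 3 all were higher. Hsp90b1, Sel1l, an adaptor of endoplasmic reticulum-associated degradation, and Nktr, a cyclophilin-related protein, carried 3 each, with log2 differences of -3.24 to -2.74, -2.98 to -1.81 and -1.50 to -1.25. Prc1, Sc4mol and Trim7 were the hosts with 2 higher transcripts. Transcripts of 1 host can share exons with each other, so they are not separate observations.

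Grouped by what the host does, 16 of 38 tested transcripts on genes of endoplasmic reticulum chaperones and folding were lower, none was higher and 22 did not pass. The median log2 difference was -1.51, against 0.02 over all transcripts tested, of which 2.26% were lower. The 16 were 3 on each of Hsp90b1 and Sel1l, 2 on each of Hspa5, Pdia6 and Hyou1, and 1 on Calr, Manf, Xbp1 and Ddit3. Among these are Xbp1, the transcription factor of the unfolded protein response, and Ddit3, which is not a chaperone. The host genes were tested in the same way in the gene table, where 37.8% of 11104 genes were called, 18.8% as higher and 19% as lower. Host counts may include reads of the transcripts, so they are not a separate measurement. Of the 25 hosts of this list, 23 were lower and none higher, with a median of -1.26. The count of lower transcripts was 13 to 17 when 1 library was left out and 16 to 18 under the other scalings.

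Transcripts on DNA replication and G1/S genes were higher in 6 of 18 cases and lower in none, with a median of 1.61, and their hosts were higher in 13 of 15. On mitosis and G2/M genes 7 of 18 transcripts were higher and none lower, with a median of 1.55, and 11 of 13 hosts were higher. Over all, 2.67% of the transcripts tested and 18.8% of the genes tested were higher. Without H/R library 2 a single mitosis transcript of 18 passed, without H/R library 1 or 3 there were 3 and 2, and without control library 2 there were 4. A processed_transcript of Top2a, the topoisomerase of mitotic chromosomes, had 210.0, 177 and 193 CPM in H/R, against 79.6, 94.2 and 37.9 CPM in control, with a log2 difference of 1.44 ± 0.29 (SE, adjusted p = 0.0063). Retained_intron transcripts of Racgap1 and Prc1, both proteins of the cytokinetic midzone, had log2 differences of 2.58 ± 0.57 (SE, adjusted p = 0.0103) and 2.0 ± 0.46 (SE, adjusted p = 0.0148). The Racgap1 values were 61.7, 79.2 and 57.9 CPM in H/R and 17.5, 1.62 and 13.9 CPM in control.

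On cholesterol synthesis and uptake genes 5 of 13 transcripts were higher and none lower, with a median of 1.10, and 7 of 8 hosts were higher. Besides Lss these lay on Sc4mol, the older symbol of the sterol oxidase gene Msmo1, with 2 calls, on Sqle, squalene epoxidase, and on Idi1, the isopentenyl isomerase. Another transcript of Sqle, typed retained_intron, did not pass, with a log2 difference of -0.10 ± 0.76 (SE, adjusted p = 0.966). A retained_intron transcript of Sc4mol had 75, 124 and 76.9 CPM in H/R, against 27.1, 24.4 and 17.9 CPM in control, with a log2 difference of 1.98 ± 0.39 (SE, adjusted p = 0.00451). The Idi1 transcript had 19, 29 and 23 counts in the H/R libraries and 0 in each control library, which makes it at least 11.9-fold higher in H/R, against a floor of 3 counts over the control group. Leaving out H/R library 2 left 1 call on this list, H/R library 1 or 3 left 2 and control library 3 left 3, as did library sizes taken from the genes. Transcripts on p53 target genes were higher in 2 of 14 cases and lower in 1, with a median of 0.47, and 7 of 11 hosts were higher and 2 lower. Over all transcripts tested 2.67% were higher and 2.26% lower, and over all genes tested 18.8% and 19%. Without H/R library 3 a single higher call was left. The lower one, Gm3362, is a pseudogene in an intron of Rrm2b and is set beside Rpl23a, which it resembles, below. It was lost without H/R library 1 or 3 or control library 2 or 3. Trp53inp1, which promotes p53-dependent death, had 178, 152 and 195 CPM in its processed_transcript in H/R, against 54.1, 64.9 and 93.6 CPM in control, with a log2 difference of 1.31 ± 0.27 (SE, adjusted p = 0.00699).

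Transcripts on HIF target and glycolysis genes were lower in 5 of 19 cases and higher in none, with a median of -0.75, 48 h after the return to standard oxygen. Of their hosts, 8 of 13 were lower. Over all, 2.26% of the transcripts tested and 19% of the genes tested were lower. A retained_intron transcript of Ndrg1, a hypoxia-induced gene, had 23.3, 22.5 and 14.7 CPM in H/R, against 86.0, 154 and 175 CPM in control, with a log2 difference of -2.77 ± 0.36 (SE, adjusted p = 0.000168). That of Eno1, the enolase of glycolysis, had 21.7, 39.6 and 31.1 CPM in H/R and 84.4, 84.4 and 81.7 CPM in control, with a log2 difference of -1.44 ± 0.37 (SE, adjusted p = 0.0271), and the call was lost without H/R library 1 or 3 or any one control library. The Eno1 gene had a difference of -0.08 ± 0.08 (SE, adjusted p = 0.477), and the ratio of transcript to gene changed by -1.63 ± 0.34 (SE, adjusted p = 0.0736), which did not pass. Leaving out H/R library 1 or 3 or control library 2 left 2 calls on this list, and leaving out H/R library 2 left 3. Of the transcripts on interferon and antigen presentation genes 3 of 13 were lower and none higher, with a median of -1.13, and 7 of 9 hosts were lower. They lay on Ifi44, an interferon-induced gene, with 0.833, 4.5 and 0 CPM in H/R against 46.2, 71.4 and 15.9 CPM in control, on Ddx58, the RNA sensor RIG-I, with -1.70 ± 0.38 (SE, adjusted p = 0.0114), and on Xaf1 with -1.72 ± 0.43 (SE, adjusted p = 0.0228). Without H/R library 3 or control library 2, 1 call was left on this list.

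**Figure D3:**
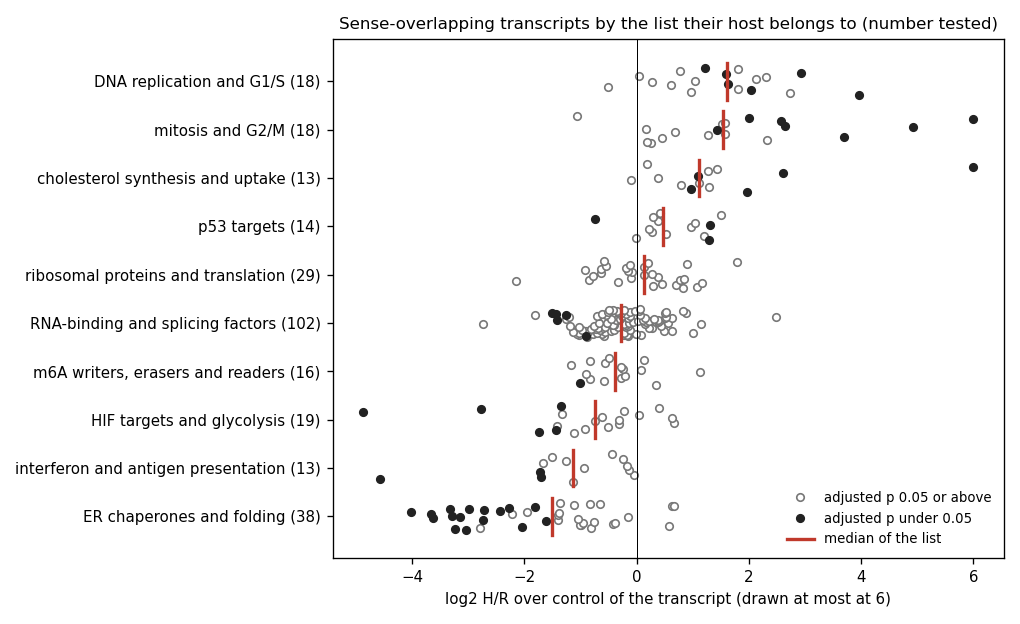
Log2 difference, H/R over control, of each tested sense-overlapping transcript on the hosts of 10 gene lists, with the number tested in brackets. Filled points have an adjusted p under 0.05, open points do not, and red bars are list medians. Values above 6 on the log2 axis come from transcripts with 0 counts in every control library and are drawn at 6. Medians run from -1.51 for endoplasmic reticulum folding genes to 1.61 for DNA replication genes.

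RNA-binding and splicing factor genes carried the most tested transcripts, 102, of which 5 were lower and none higher, with a median of -0.28. Over all transcripts tested 4.93% were called, 2.26% as lower, and 19% of all genes tested were lower. Of 40 hosts of this list 21 were lower and 2 higher. Of these 5, 3 lay on Nktr, 1 on Srsf11, a serine- and arginine-rich splicing factor, and 1 on Luc7l2, a component of the U1 particle. The retained_intron transcript of Nktr had 85.8, 72.9 and 89.9 CPM in H/R, against 285, 222 and 195 CPM in control, with a log2 difference of -1.50 ± 0.24 (SE, adjusted p = 0.00113), and its nonsense_mediated_decay transcript had -1.44 ± 0.23 (SE, adjusted p = 0.000856). The Nktr gene had -1.34 ± 0.12 (SE, adjusted p = 3.96e-06). With library sizes taken from the genes, 16 of the 102 were lower, and DESeq2 called 10 lower and 1 higher. The nonsense_mediated_decay transcript of Ddx5, an RNA helicase, had 456, 483 and 501 CPM in H/R and 341, 315 and 277 CPM in control, without overlap, but a log2 difference of 0.63 ± 0.19 (SE, adjusted p = 0.0653) did not pass. Among the genes of the m6A machinery 1 of 16 transcripts was lower and none higher, a median of -0.39, and 2 of 6 hosts were lower. The lower transcript was one of the demethylase gene Fto, typed protein_coding, with 52.5, 68.4 and 76.9 CPM in H/R, against 164, 114 and 122 CPM in control and a log2 difference of -1.01 ± 0.28 (SE, adjusted p = 0.0467). That call was lost with library totals alone, with either other filter on low counts, with the replicate number as a block and whenever 1 library was left out.

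Exon and intron overlap were compared by their counts alone. Of 4308 tested exon-overlapping transcripts, 65 were higher and 91 lower, or 3.62%, with a median of -0.02. Of 311 tested intron-overlapping transcripts, 1 was higher and 9 were lower, or 3.22%, with a median of -0.10. Both shares lay below the 4.93% of the whole table. The single higher one was XLOC_001614 in an intron of Arhgap18, a RhoA GTPase-activating protein, with 227, 245 and 214 CPM in H/R, against 82.8, 107 and 57.8 CPM in control and a log2 difference of 1.46 ± 0.26 (SE, adjusted p = 0.00196). The next, A930013F10Rik in Polb, Gm13650 in Sestd1 and Gm15940 in Ncald, did not pass, with log2 differences of 0.88 ± 0.25 (SE, adjusted p = 0.0528), 1.52 ± 0.45 (SE, adjusted p = 0.061) and 2.06 ± 0.66 (SE, adjusted p = 0.0851). The lower ones were led by a 3-exon retained_intron transcript within Luc7l2 (chr6:38559215-38569565, plus strand), with 124, 129.6 and 131 CPM in H/R, against 395, 313 and 317 CPM in control and a log2 difference of -1.41 ± 0.21 (SE, adjusted p = 0.000497). Rpl10-ps6, a pseudogene in an intron of Ide, the insulin-degrading enzyme, had 553, 319.5 and 567 CPM in H/R and 1199, 961 and 1187 CPM in control, with a log2 difference of -1.22 ± 0.21 (SE, adjusted p = 0.00179). AK162351 in Mef2a, a myocyte enhancer factor, had 198, 206 and 188 CPM in H/R and 473, 391 and 402 CPM in control, with a log2 difference of -1.09 ± 0.20 (SE, adjusted p = 0.00223). XLOC_000498, described as overlapping an intron of A130050O07Rik, had a log2 difference of -1.01 ± 0.23 (SE, adjusted p = 0.0126). That call was lost without any one H/R library or without control library 1. No H/R library reached the lowest control library in any of these 4, which were picked by their adjusted p in the same libraries.

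Hosts and transcripts share their libraries, so their values are given side by side. They are not separate measurements, because 13694 of the 14806 transcripts carried the gene of the host itself. The host count may then include reads of the transcript. For Hspa13 transcript and gene had the same counts, 14, 38 and 52 in H/R and 9, 15 and 11 in control. For Ythdf3 the transcript had more counts than the gene in most libraries. It had 56, 89 and 53 in H/R, where the gene had 23, 27 and 56. In control the transcript had 33, 25 and 32 and the gene 28, 17 and 5. How often either case holds was not tested. Of the 2805 hosts with a tested transcript, 443 were higher and 715 lower, or 1158 in all, where 37.8% of all genes tested were called. The hosts had a median of -0.07 against 0.01 over all genes. With library totals alone 881 were higher and 414 lower, and the median of all genes moved by 0.21. For Arrdc3 the transcript had 3.06 ± 0.30 (SE, adjusted p = 7.3e-06) and the gene 1.97 ± 0.13 (SE, adjusted p = 1.98e-07). For Calr these were -3.03 ± 0.35 (SE, adjusted p = 3.69e-05) and -2.94 ± 0.08 (SE, adjusted p = 4.52e-11). For Timp3 they were -2.10 ± 0.25 (SE, adjusted p = 5.06e-05) and -1.32 ± 0.08 (SE, adjusted p = 8.85e-08).

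**Figure D4:**
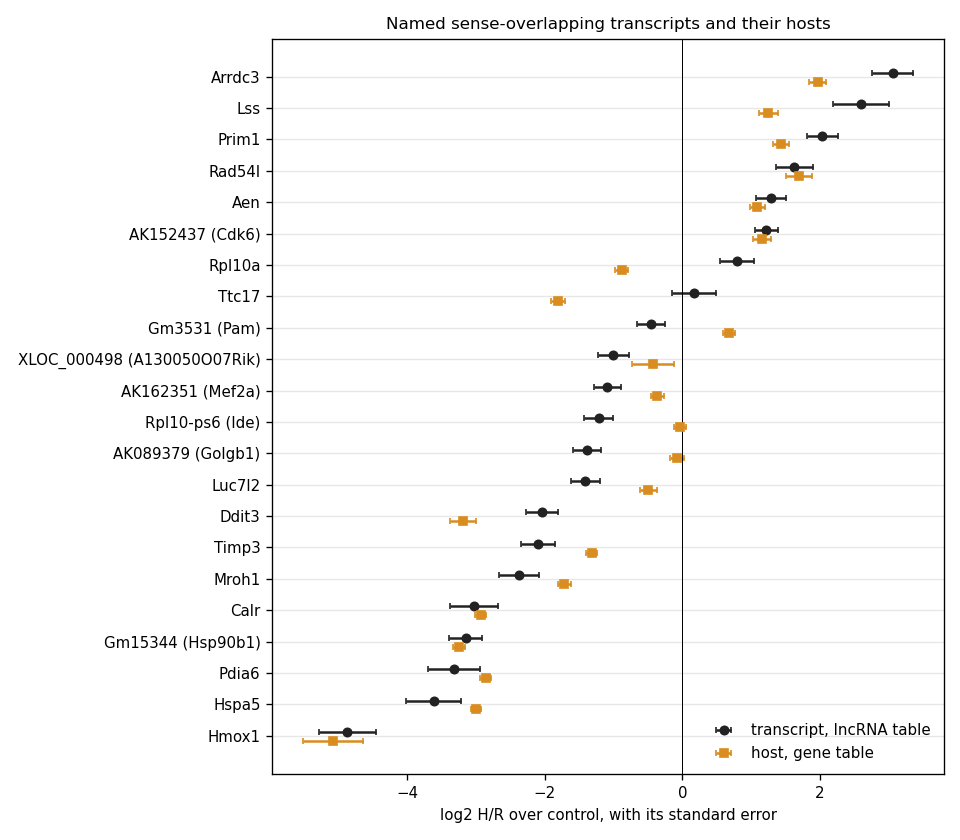
Log2 difference, H/R over control, with its standard error, of named sense-overlapping transcripts in the lncRNA table (circles) and of their hosts in the gene table (squares). The 2 values of Calr, -3.03 and -2.94, lie close together, whereas the transcript of Rpl10a has 0.79 and its gene -0.88.

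Whether a transcript changed unequally to its host was tested on the log2 ratio of transcript counts to host counts within each library, with limma over all 4993 pairs of a transcript and its associated gene. Of these pairs 0.621% were called, 0.260% as higher and 0.361% as lower, with a median of -0.11. Of the 4368 sense-overlapping pairs 3 were higher and 10 lower in H/R, and the median was -0.13. Exon-overlapping pairs numbered 3 higher and 6 lower of 4094, and intron-overlapping pairs 0 higher and 4 lower of 274, with medians of -0.12 and -0.30. Calls on this test were few and depended on single libraries. Without control library 2 limma left none of 5889 pairs, with 545 at an unadjusted p under 0.05. Without control library 3 there were 3 calls, without H/R library 1 or 2 there were 4 and without H/R library 3 there were 5. Fitted without the trend of the variance on abundance, limma called 1 pair. None of the 13 changed direction in any of these fits.

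The 3 pairs with a higher ratio had hosts that fell. For Rpl10a, a protein of the large ribosomal subunit, the retained_intron transcript made up 3.35, 5.11 and 3.69 counts per 100 host counts in the H/R libraries, against 1.59, 1.41 and 1.52 in the control libraries, a change of 1.40 ± 0.21 (SE, adjusted p = 0.0199) on the log2 scale. Its gene had -0.88 ± 0.09 (SE, adjusted p = 1.07e-05) and the transcript 0.79 ± 0.25 (SE, adjusted p = 0.0766). For Ttc17, a processed_transcript made up 6.27, 4.85 and 6.86 counts per 100 host counts in H/R, against 1.67, 1.73 and 1.97 in control, a change of 1.72 ± 0.26 (SE, adjusted p = 0.0199), where the gene had -1.81 ± 0.10 (SE, adjusted p = 5.79e-08) and the transcript 0.16 ± 0.32 (SE, adjusted p = 0.858). For Ddit3 the share was 32.1, 27.2 and 27.6 in H/R and 15.7, 14.6 and 15.6 in control, a change of 0.92 ± 0.14 (SE, adjusted p = 0.0204), and here both fell, the transcript with -2.04 ± 0.23 (SE, adjusted p = 3.13e-05) and the gene with -3.19 ± 0.19 (SE, adjusted p = 1.22e-07). The H/R and control ratios did not overlap in any of the 3, which were picked by the test of these ratios.

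Of 29 transcripts on ribosomal protein and translation genes none was called by edgeR or DESeq2, 7 had an unadjusted p under 0.05 in edgeR, and the median was 0.13, which turned to -0.12 with the library sizes of the gene table. Of their 21 hosts, 20 were lower and none higher, with a median of -0.94, where 19% of all genes tested were lower. The median change of the ratio was 0.76 over 26 pairs, against -0.11 over all pairs, and 22 of the 26 lay above 0, but limma called no pair of this list, with 7 at an unadjusted p under 0.05. The retained_intron transcript of Rps3, a small-subunit protein, made up 1.14, 1.22 and 1.23 counts per 100 host counts in H/R, against 0.261, 0.402 and 0.458 in control, with 1.69 ± 0.33 (SE, adjusted p = 0.0617). That of Eif4a2, an initiation factor helicase, made up 1.21, 1.24 and 0.897 in H/R and 0.324, 0.437 and 0.293 in control. For Rps19 the values were 5.41, 7.85 and 7.22 in H/R and 3.12, 4.45 and 2.36 in control. Snord43, a small nucleolar RNA of 48 bases in an intron of Rpl3, had 78, 44 and 48 counts in H/R, against 17, 5 and 3 in control, with a log2 difference of 1.79 ± 0.59 (SE, adjusted p = 0.0913).

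The 10 pairs that fell against their host included 3 intronic pseudogenes, described below. AK089379, a model on Golgb1, which encodes the Golgi protein giantin, made up 2.13, 2.56 and 2.32 counts per 100 host counts in H/R, against 6.47, 7.42 and 6.67 in control, a change of -1.55 ± 0.17 (SE, adjusted p = 0.00396). Golgb1 itself had -0.08 ± 0.10 (SE, adjusted p = 0.544), and the model had -1.39 ± 0.20 (SE, adjusted p = 0.000388). The Luc7l2 transcript made up 4.12, 3.99 and 4.25 in H/R and 9.26, 8.20 and 10.5 in control, a change of -1.17 ± 0.18 (SE, adjusted p = 0.0199). In both, which were picked by the test of these ratios, all H/R values were below all control values. Outside the rule for named transcripts, and seen only in the results, the others were AK154309 on Sc5d with -1.19 ± 0.20 (SE, adjusted p = 0.0277), DQ692551 on Sh3glb1 with -1.07 ± 0.19 (SE, adjusted p = 0.0349), AK161900 on Bnip2 with -1.46 ± 0.27 (SE, adjusted p = 0.0444), Cdh2 with -0.87 ± 0.16 (SE, adjusted p = 0.0453) and Ostm1 with -1.18 ± 0.22 (SE, adjusted p = 0.0495).

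**Figure D5:**
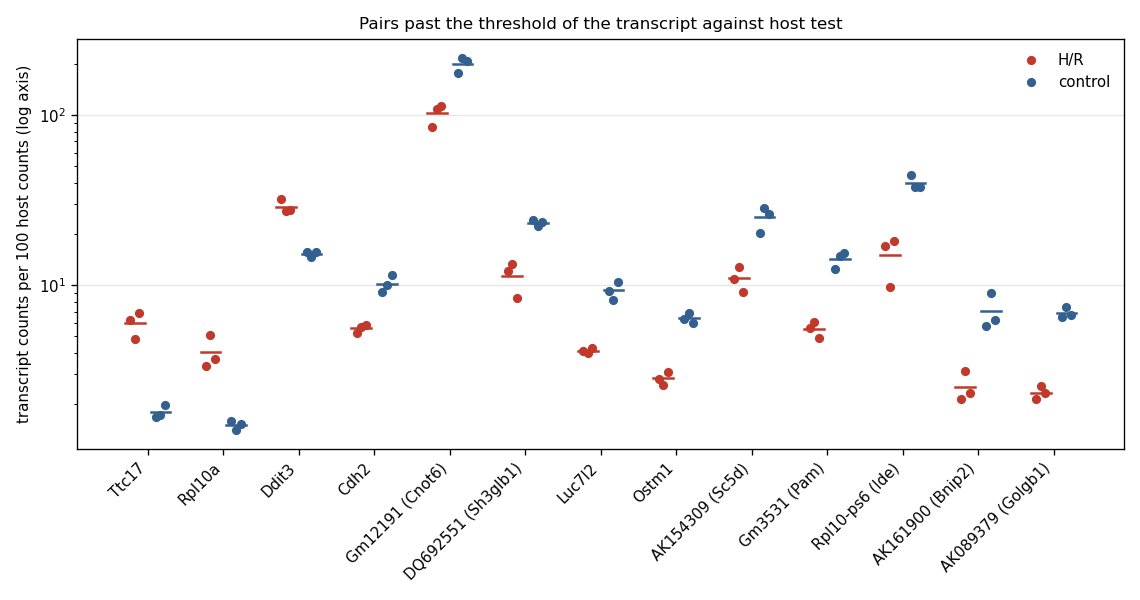
Counts of the transcript per 100 counts of its host in each library, on a log axis, for the 13 pairs past the threshold of the ratio test. Points are the 3 H/R and 3 control libraries and bars their means, with the host in brackets where its name differs. Ttc17, Rpl10a and Ddit3 are higher in H/R and the other 10 are lower, with no overlap between the groups. The pairs were picked by a test of these same ratios, so the lack of overlap is not separate support.

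Pseudogene transcripts, most of them intronic, were set beside their host and also beside the coding gene they resemble. Windows of 50 bases were compared with all protein_coding transcripts of GENCODE M21, and 218 of 339 pseudogene transcripts shared at least 1 window exactly, 59 of them at least 50% of their windows. A read that lies wholly in shared sequence cannot be told apart from a read of the coding gene. The 150-base reads are longer than a window, and how many reads this concerns was not tested. The tested transcripts of those 59 numbered 43, of which none was higher and 2 lower, with a median of -0.17. Their most similar coding genes were higher in 3 and lower in 20 of 42 cases, with a median of -0.26, and their hosts were higher in 5 and lower in 10 of 35, with a median of -0.11.

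Rpl10-ps6 shared 91.6% of its windows with Rpl10, a protein of the large ribosomal subunit. It had -1.22 ± 0.21 (SE, adjusted p = 0.00179), its host Ide had -0.03 ± 0.09 (SE, adjusted p = 0.786) and Rpl10 had -1.08 ± 0.11 (SE, adjusted p = 6.5e-06). It made up 17.1, 9.80 and 18.2 counts per 100 counts of Ide in H/R, against 44.5, 37.9 and 37.8 in control, a change of -1.46 ± 0.22 (SE, adjusted p = 0.0199). Gm3362, in an intron of Rrm2b, a p53-induced subunit of ribonucleotide reductase, shared 75.5% with Rpl23a. It had 699, 874 and 574 CPM in H/R and 1019, 1169 and 1397 CPM in control, with -0.74 ± 0.19 (SE, adjusted p = 0.0292), where Rrm2b had -0.70 ± 0.11 (SE, adjusted p = 0.000354) and Rpl23a had -0.87 ± 0.09 (SE, adjusted p = 9.51e-06). These were the 2 called pseudogenes.

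Gm12191, in an intron of Cnot6, a deadenylase, shared 83.3% of its windows with Rpl30, and had 1779, 2506 and 2448 CPM in H/R, against 2546, 2724 and 2897 CPM in control. Its own difference of -0.28 ± 0.16 (SE, adjusted p = 0.412) did not pass, Cnot6 had 0.44 ± 0.10 (SE, adjusted p = 0.00283) and Rpl30 had -0.94 ± 0.10 (SE, adjusted p = 1.68e-05), and the ratio to Cnot6 changed by -0.97 ± 0.14 (SE, adjusted p = 0.0199). Gm3531, in Pam, an amidating enzyme of peptides, shared 64.8% with Btf3, a factor of the nascent polypeptide complex. It had -0.46 ± 0.20 (SE, adjusted p = 0.238), Pam had 0.67 ± 0.08 (SE, adjusted p = 4.57e-05) and Btf3 had -0.52 ± 0.09 (SE, adjusted p = 0.000639), and the ratio to Pam changed by -1.37 ± 0.17 (SE, adjusted p = 0.00704). Gm15801, in Aldh18a1, shared all its windows with Ptp4a1, a phosphatase, and had 0.35 ± 0.25 (SE, adjusted p = 0.541), where Aldh18a1 had -1.39 ± 0.12 (SE, adjusted p = 2.5e-06) and Ptp4a1 had 0.46 ± 0.13 (SE, adjusted p = 0.0156).

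Some of the transcripts carry names of lncRNAs that are known in their own right. Snhg3, a small nucleolar RNA host on Rcc1, had 55.0, 68.4 and 36.3 CPM in H/R and 46.2, 40.6 and 49.8 CPM in control, with a log2 difference of 0.23 ± 0.39 (SE, adjusted p = 0.838). Peg13, an imprinted transcript in an intron of Trappc9, had 159, 141 and 172 CPM in H/R and 148, 135 and 122 CPM in control, with a log2 difference of 0.22 ± 0.23 (SE, adjusted p = 0.713). Neither passed, and the groups overlapped for both. Both differences turned to slightly below 0 with the library sizes of the gene table. The sense-overlapping model of Sox2ot, listed with Sox2, a transcription factor of neural stem cells, had 4, 0 and 2 counts in the H/R libraries and 0 in each control library, too few to be tested. Of the 3 retained_intron transcripts listed as 1500012F01Rik, which GENCODE names Zfas1, 1 was tested and did not pass, with -0.21 ± 0.52 (SE, adjusted p = 0.89). The gene had -1.90 ± 0.16 (SE, adjusted p = 1.58e-06), and the change of the ratio, 1.42 ± 0.49 (SE, adjusted p = 0.254), did not pass either.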

How the data were processed

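The deposited tables held raw counts per lncRNA transcript and per gene for 6 libraries, which the authors made from 150-base read pairs. The submitters' processing notes name cutadapt 1.9.3, HISAT2 2.0.4, HTSeq 0.9.1, STAR 2.5.1b and edgeR 3.16.5, and the genome build mm10. The tool, the annotation and the strand setting that gave the transcript counts are not given in the sources used here. A transcript listed on several lines was counted once. Tables of comparisons made by the authors, 18 columns of values normalized per sample and the circular RNA table were not used.

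Counts were tested with edgeR 4.0.16 (filterByExpr, TMM scaling, quasi-likelihood test) in R 4.3.3 on each whole table, with Benjamini-Hochberg adjustment and a threshold of 0.05. CPM are TMM-scaled counts per 1e+06 counts of a table. Ratios of transcript to host used a pseudocount of 0.5 and limma 3.58.1 with a trend, over transcripts with a single host that passed the filter. Scripts were tested on simulated data with few changes set in. The test recovered 4.76% of 2-fold and 44.1% of 4-fold changes of lncRNA transcripts, against 78% and 98.3% for genes. The ratio test recovered 1.96% and 26.7%. Transcripts and pairs that did not pass may therefore have changed, and calls on transcripts and on hosts are not equally sensitive. Tables and plots were made with Python 3.11.15, pandas 2.3.3 and matplotlib 3.10.9. Transcripts were matched to GENCODE M21 by identifier.

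Named transcripts were the 8 per direction with the smallest adjusted p and 1 per host, 4 per direction within each overlap class, the 6 with the highest counts, 5 per direction of the ratio test, up to 3 per direction of each host list and well-known names, and some of these are not reported here. Listed genes were matched by symbol, and by RefSeq synonyms (GRCm38.p6) where the tables use another symbol. The members and lists were chosen with earlier results of these data known. Alternatives were DESeq2 1.42.0, other scalings and filters, thinned counts, a replicate block, the thresholds of the study, and each library left out in turn. Replicate numbers did not pair the libraries.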

Additional observations from a re-analysis of the deposited data

How the results depend on the processing

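The count of 166 called transcripts ranged between 73 and 163 with 1 library left out, the 156 with exon overlap between 68 and 152 and the 10 with intron overlap between 5 and 11. With an unadjusted p under 0.05 and a fold of at least 2, 454 transcripts and 222 hosts passed. Library sizes taken from the genes gave 23 calls with intron overlap. DESeq2 called 91 higher and 143 lower, no filter 94 and 79, and a minimum of 1 CPM in 3 libraries 79 and 87. Of the 166 calls, 137 to 166 passed under the other scalings, filters, thinning, DESeq2 and the block, 71 to 130 passed with 1 library left out, and none reversed. The replicate numbers did not pair the libraries (deviations of same-numbered libraries correlated at -0.01 to 0.04), and the replicate block gave 55 higher and 85 lower transcripts, 1118 hosts and 10 ratio calls. The 13 ratio calls became 20 with thinned H/R counts, 21 at a mean count of at least 20 and 1 without the trend, and were 0 to 9 with 1 library left out. Centring the ratios in each library, chosen after seeing the data, gave 7 higher and 8 lower. Without Rn7sk and Rn45s, also chosen after seeing the data, the share of counts was 53.6% in H/R and 55.8% in control, against 29.5% and 29.3% with them. Directions that reversed belonged to differences that did not pass. Cytb was at 0.0343 with the minimum of 1 CPM, 0.0727 with no filter, 0.0787 with library totals alone and -0.16 to 0.17 with 1 library left out. With library sizes taken from the genes, 2900097C17Rik was at -0.0579, Ttc17 at -0.0659, Snhg3 at -0.0141, Peg13 at -0.0178 and AK154309 at -0.0436. With library totals alone the hosts Ddx5, Polb, Golgb1, Ide and Eno1 were at 0.0364, 0.12, 0.13, 0.18 and 0.13. With 1 library left out, Golgb1 and Ide were at -0.163 to 0.0089 and -0.0951 to 0.0144. The cause of these changes was not tested. Replicates varied more in the lncRNA table, where the coefficient of variation estimated by edgeR was 0.405, against 0.144 for genes.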

Other observations

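Gm14036, a processed pseudogene in an intron of Plcb1 that shared 65.2% of its 50-base windows with Rpl29, was singled out after its values were seen. It had 608, 711 and 639 CPM in the H/R libraries, against 789.7, 3.25 and 1426 CPM in the control libraries. In counts these were 729, 790 and 739 in H/R and 496, 2 and 716 in control, so control library 2 held almost none of a transcript that was abundant in the other 5 libraries. The difference was -0.18 ± 0.73 (SE, adjusted p = 0.937).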
